A study of Mus musculus with 6 samples.

Results

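The positions of mouse brain mitochondrial tRNAs were taken from small RNA libraries as every reference position whose name begins with mito- and that was listed in all 6 libraries. This gave 648 of 6130 positions, on 11 references, and the other 5482 positions lay on cytosolic tRNAs. The members per reference were 77 for mito-Leu2-TAA, 74 for mito-Gln-TTG, 72 each for mito-Met-CAT and mito-Val-TAC, 70 for mito-Pro-TGG, 61 for mito-Ala-TGC, 58 for mito-Tyr-GTA, 55 for mito-Ile-GAT, 41 for mito-Thr-TGT, and 34 each for mito-Cys-GCA and mito-Leu1-TAG. A 12th reference, mito-Gly-TCC, was listed in 3 of the 6 libraries and gave no member. RNA came from whole mouse brain, either wild type or TRMT1L knockout, with 3 libraries per genotype that the submitters describe as biological replicates. It was depleted of ribosomal RNA and held fragments of 30 to 150 bp. Strain, age, sex and the knockout allele were not given in the sources used here, and the genotype was not checked on the Trmt1l transcript, since tRNA references alone were analysed. In what follows each series of 6 values gives wild-type libraries 1, 2 and 3 and then knockout libraries 1, 2 and 3.

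Mitochondrial tRNAs are encoded by the mitochondrial genome and are modified by enzymes imported from the cytosol. Purine 9, between the acceptor stem and the D arm, is methylated at its base-pairing face by TRMT10C together with SDR5C1, which gives 1-methyladenosine or 1-methylguanosine and which belongs to the same complex that cuts the 5′ end of the tRNA. Guanosine 26, at the foot of the anticodon stem, is the dimethylation site of TRMT1, of which TRMT1L is a paralogue, and purine 37, beside the anticodon, carries bulky or methyl groups that differ between tRNAs. A methyl group on the base-pairing face makes reverse transcriptase misread the base, skip it or stop, and these events leave mismatches, deletions and read starts in the sequenced reads.

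The 9 references on which the position 9 and 26 results rest are written here 5′ to 3′, as the deposited reference bases spell them. Results at 37 also use mito-Cys-GCA and mito-Thr-TGT, whose 5′ ends were not listed in any library. Positions were counted from 1 at the 5′ end of each reference. The capitals mark position 9 and the bases numbered 26 and 37 in the standard tRNA numbering, which were found from the anticodon and its stem. The anticodon letters occur at 2 places in mito-Leu2-TAA and 3 in mito-Pro-TGG, and the place with the most pairs in the stem of 5 was taken, with 4 pairs against 1 and 5 against 3.
mito-Ala-TGC: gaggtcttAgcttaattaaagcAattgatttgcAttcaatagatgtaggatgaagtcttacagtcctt
mito-Leu1-TAG: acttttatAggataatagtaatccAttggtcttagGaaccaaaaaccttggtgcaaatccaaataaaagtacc
mito-Val-TAC: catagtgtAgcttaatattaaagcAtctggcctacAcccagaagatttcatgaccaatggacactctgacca
mito-Pro-TGG: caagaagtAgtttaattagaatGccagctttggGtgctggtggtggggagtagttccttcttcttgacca
mito-Tyr-GTA: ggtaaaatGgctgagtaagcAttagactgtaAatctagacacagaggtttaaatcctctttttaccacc
mito-Leu2-TAA: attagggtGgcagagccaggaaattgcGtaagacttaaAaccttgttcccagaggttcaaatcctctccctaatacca
mito-Gln-TTG: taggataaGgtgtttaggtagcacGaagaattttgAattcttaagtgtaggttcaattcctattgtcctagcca
mito-Ile-GAT: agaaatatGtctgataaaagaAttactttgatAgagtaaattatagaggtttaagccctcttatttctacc
mito-Met-CAT: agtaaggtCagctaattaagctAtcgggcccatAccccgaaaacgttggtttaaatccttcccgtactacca
The first 4 have A at position 9, mito-Met-CAT has C there, and the other 4 have G. The base numbered 26 is G in mito-Gln-TTG, mito-Leu2-TAA and mito-Pro-TGG and A in the other 6, and the base numbered 37 is G in mito-Pro-TGG and mito-Leu1-TAG and A in the rest. In the RefSeq annotation of GRCm38.p6, 22 mitochondrial tRNA genes are listed, and TrnI, TrnQ and TrnM, for isoleucine, glutamine and methionine, follow each other between ND1 and ND2.

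The mitochondrial references took 11.8%, 11.6% and 9.30% of all base calls in the wild-type libraries and 10.02%, 9.48% and 8.22% in the knockout libraries. The 2 groups overlapped. The mean was 10.9% ± 1.39 (SD, n = 3) against 9.24% ± 0.924 (SD, n = 3), a difference of -1.67 percentage points (exact two-sided permutation p = 0.3). All base calls numbered 6151209 to 6295061 in the wild-type libraries and 7981301 to 8797395 in the knockout libraries, so each knockout library was the deeper. Between 9 and 15 references per library, 1 of them mitochondrial in 1 library, were at the upper limit of coverage in the files, whose highest value is 8032 reads. Without those references the share was lower in each knockout library, at 13.3%, 13.8% and 10.7% against 20.1%, 20.6% and 16.02%, and the difference was -6.33 points (exact permutation p = 0.1, the smallest that 3 against 3 libraries can give). Mitochondrial base calls alone numbered 583508 to 729132 in the wild-type libraries and 723078 to 831352 in the knockout libraries. The share thus depends on the cytosolic calls as well. In whole tissue, fewer cells rich in mitochondria and less mitochondrial tRNA per cell cannot be told apart by such a share, and neither was tested.

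Most of the mitochondrial positions were read as the reference base. Of the 648 positions, 344 had no mismatch in any library, 534 had no listed deletion and 573 no insertion. Among the 428 positions with at least 100 reads in each library, 395, or 92.3%, had a mean mismatch share under 0.5%, against 94.8% of 3609 cytosolic positions. A mean of at least 5% was reached by 11 of these 428 positions, or 2.57%, and by 44 of the 3609 cytosolic positions, or 1.22%. The 11 include position 26 of mito-Gln-TTG, positions 23 and 54 of mito-Pro-TGG and position 60 of mito-Val-TAC. At each of them nearly all reads carried another base than the reference. How many of the 44 cytosolic positions are of this kind was not counted, so the shares do not compare partial mismatches alone. With the shallower positions, 16 mitochondrial positions had a mean of 5% or more, and 7 of those were read as another base in at least 95% of calls in every library.

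**Figure D1:**
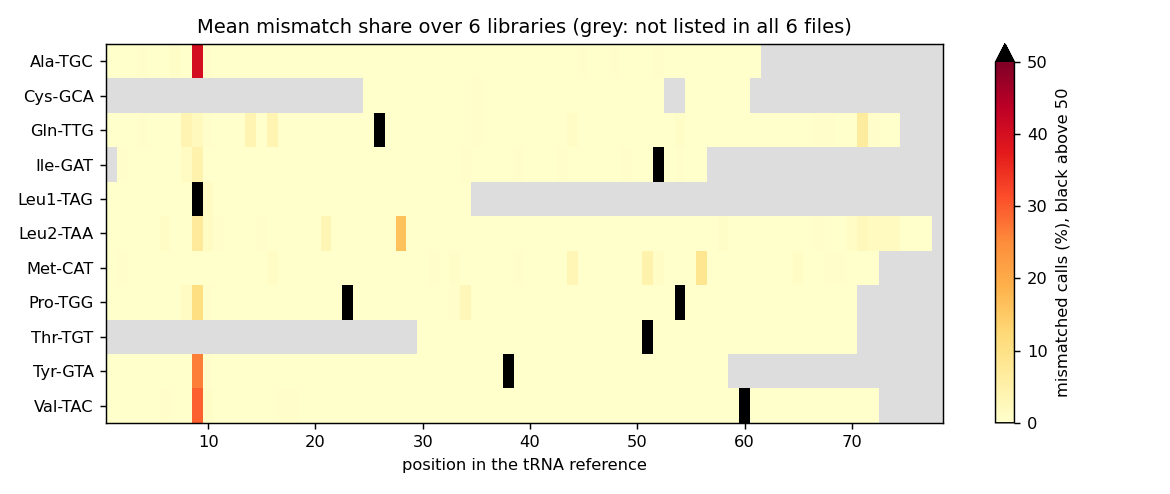
Mean share of mismatched calls (colour, %) at each position (horizontal axis) of the 11 mitochondrial tRNA references (rows), over 6 libraries; black marks means above 50% and grey marks positions not listed in all 6 files. Position 9 is coloured in the 4 references with A, at means of 10.7% to 56.6%, and in Tyr-GTA, which has G, at 26.4%, and single black cells mark differences seen in nearly all reads, apart from position 9 of mito-Leu1-TAG at 56.6%.

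Those 7 differences were A26G in mito-Gln-TTG, T52C in mito-Ile-GAT, G23A and T54C in mito-Pro-TGG, A51C in mito-Thr-TGT, G38A in mito-Tyr-GTA and G60A in mito-Val-TAC. Each is written as the reference base, its position in the reference and the base that was read. The lowest share in any library was 95.2%, for A51C of mito-Thr-TGT in the third wild-type library, where 62 reads covered the position. All 6 libraries carried all 7, in both genotypes, and they say nothing of the knockout. The G23A difference lies at the base numbered 26 of mito-Pro-TGG, so this reference shows a mismatch of 100% at 26 while its reads have A there.

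A9 was the base with the highest mismatch shares among the bases read partly as the reference. In mito-Leu1-TAG, the leucine tRNA for CUN codons, 48.4%, 59.6% and 52.4% of wild-type calls at A9 were mismatched, and 61.5%, 65.7% and 51.6% of knockout calls. The groups overlapped, with means of 53.5% ± 5.65 (SD, n = 3) and 59.6% ± 7.24 (SD, n = 3). These shares rest on 64 to 146 calls per library, and the Wilson 95% interval of the first wild-type library ran from 36.6% to 60.4%. The base most often read was T, with A9T making 75.8% of mismatched calls in the wild type against 61.5% in the knockout.

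In mito-Ala-TGC, the alanine tRNA, A9 was mismatched in 36.7%, 31.5% and 21.1% of wild-type calls and 62.7%, 48.1% and 40.5% of knockout calls. Every knockout library was above every wild-type library, with means of 29.8% ± 7.97 (SD, n = 3) and 50.5% ± 11.3 (SD, n = 3). Only 54 to 118 bases were called per library, and the intervals of the lowest knockout library, 32.03% to 49.6%, and the highest wild-type library, 26.9% to 47.7%, overlapped. The position was under 100 reads in 1 or more libraries and therefore not among the 142 mismatch sites tested, of which 3.52% did not overlap between the genotypes. A further share of the reads skipped this base. A deletion of A9, listed at position 8, was present in 27.5%, 28.0% and 37.4% of wild-type reads and 38.9%, 32.9% and 25.6% of knockout reads, and here the genotypes overlapped. All 252 deletions at this place, out of 782 reads, removed the single A. A9G was the commonest substitution in both groups, at 84.5% and 69.2% of mismatched calls, in contrast to the A9T of mito-Leu1-TAG. Pooled over the 3 libraries of each genotype, A9T was read in 6 of 190 wild-type calls against 43 of 340 knockout calls.

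mito-Val-TAC, the valine tRNA, was the deepest of the A9 references, with 565 to 840 calls per library. Its A9 was mismatched in 26.5%, 29.7% and 24.0% of wild-type calls and 44.3%, 24.3% and 28.1% of knockout calls. The first knockout library stood above the rest, whose values overlapped, and the site was not called (26.7% ± 2.89 against 32.2% ± 10.6, SD, n = 3; limma-moderated quasi-binomial test, unadjusted p = 0.225, adjusted p = 0.677). A9T made 81.0% of mismatched calls in the wild type against 78.2% in the knockout. The same tRNA had a deletion listed at position 7, of T8 and A9 together in 288 of 295 reads, in 4.92%, 5.04% and 6.30% of wild-type reads and 9.32%, 7.13% and 6.70% of knockout reads. Each knockout value was above each wild-type value, but the adjusted p was 0.493.

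mito-Pro-TGG, the proline tRNA, had the lowest shares of the A9 references, at 9.55%, 9.61% and 9.36% in the wild type against 6.69%, 15.9% and 13.02% in the knockout. The wild-type libraries were close together, and the knockout libraries lay on both sides of them. The mean over the 4 A9 references was 30.3%, 32.6% and 26.7% in the wild-type libraries and 43.8%, 38.5% and 33.3% in the knockout libraries. The groups did not overlap, with means of 29.9% ± 2.97 and 38.5% ± 5.24 (SD, n = 3), a difference of 8.67 points. On the 2 references with at least 100 reads, mito-Pro-TGG and mito-Val-TAC, the difference was 3.93 points, from 18.1% to 22.1%. The mean is given as a description, since its references were chosen with these data known. Median base quality at A9 of mito-Ala-TGC, mito-Leu1-TAG and mito-Val-TAC was 38 to 40 in every library.

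G9 was also mismatched in all 4 references that have it. In mito-Tyr-GTA, the tyrosine tRNA, 28.5%, 22.9% and 25.8% of wild-type calls and 31.1%, 23.2% and 26.8% of knockout calls were mismatched. The groups overlapped, at 25.7% ± 2.80 and 27.0% ± 3.95 (SD, n = 3). A, C and T were all read there, with 70, 110 and 119 of 1138 pooled wild-type calls against 101, 77 and 232 of 1483 pooled knockout calls. G9T was thus the commonest in both.

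In mito-Leu2-TAA, the leucine tRNA for UUR codons, G9 was mismatched in 8.88%, 4.32% and 11.03% of wild-type calls and 11.4%, 6.78% and 0.420% of knockout calls. The third knockout library stood below the rest, with 1 mismatched call of 238. In mito-Ile-GAT, the isoleucine tRNA, the shares were 6.40%, 0% and 0% and then 16.8%, 1.31% and 2.30%, on 62 to 172 calls. The first library of each genotype was the highest there, and 0 of 62 and 0 of 135 calls still allow shares of up to 5.83% and 2.77% by the Wilson interval. In mito-Gln-TTG, the glutamine tRNA, 3902 to 7515 calls per library gave 1.93%, 2.20% and 1.91% against 2.65%, 1.92% and 1.95%. That site had the narrowest spread of the 4, and G9C made 93.0% of its mismatched calls in the wild type against 85.6% in the knockout. The unadjusted p was 0.548 and the adjusted p 0.927 (limma-moderated).

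C9 of mito-Met-CAT, the methionine tRNA and the only measured reference without a purine at 9, was mismatched in 0% to 0.271% of calls. Over the 4 G9 references the library means were 11.4%, 7.36% and 9.69% in the wild type against 15.5%, 8.30% and 7.86% in the knockout. These overlapped, unlike the means over A9, and the difference of the differences was not tested. Among cytosolic tRNAs with at least 100 reads in each library, 0 of 34 references with A9 had a mean mismatch of 5% or more, and the highest was 0.508%. Both of the mitochondrial A9 references past that coverage were above 5%. Of 29 cytosolic references with G9, 5 had 5% or more, with a highest mean of 21.9%.

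**Figure D2:**
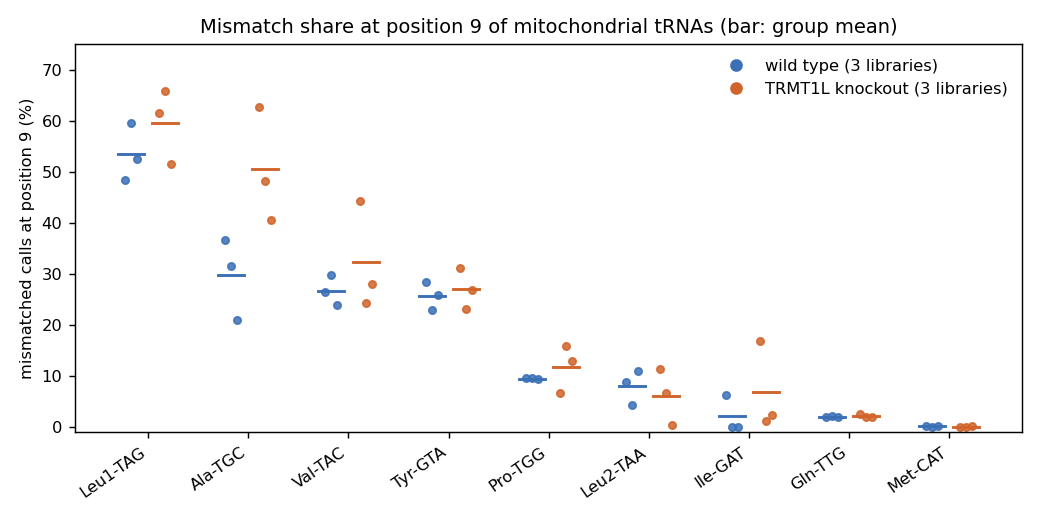
Mismatched calls at position 9 as a share of all calls there (vertical axis, %), for the 9 mitochondrial tRNAs in which the position was listed in all 6 files; each point is 1 library and bars are group means. The knockout points of Ala-TGC, 40.5% to 62.7%, lie above its wild-type points, 21.1% to 36.7%, and in the other references the genotypes overlap.

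Over the 6 references with at least 100 reads at position 9, the mean mismatch share was 12.6%, 11.5% and 12.0% in the wild-type libraries and 16.03%, 12.0% and 11.8% in the knockout libraries. The first knockout library stood apart and the others overlapped. The difference was 1.22 points and turned to -0.158 without that library. Over 64 cytosolic references with the same coverage, the first knockout library was also the highest at position 9. Its mean there was 1.73%, against 0.807% to 0.966% in the other libraries.

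At the base numbered 26, the TRMT1 site, mismatches were concentrated in mito-Leu2-TAA. G26, position 28 of that reference, was mismatched in 13.1%, 12.8% and 15.7% of wild-type calls and 23.9%, 12.4% and 19.1% of knockout calls, on 402 to 708 calls per library. The first and the third knockout libraries were above all wild-type libraries and the second was below them. This site had the smallest unadjusted p of the 24 mitochondrial mismatch sites tested (limma-moderated, unadjusted p = 0.154, adjusted p = 0.663). G28T made 62.9% of the mismatched calls in the wild type against 79.2% in the knockout, and the rest were almost all A. As a share of all calls, the reads with T were 8.64% and 15.1%, pooled over the 3 libraries of each genotype. A deletion of the same G, listed at position 27, was present in 4.35%, 4.44% and 5.98% of wild-type reads and 4.16%, 6.27% and 4.42% of knockout reads, with no separation of the genotypes.

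G26 of mito-Gln-TTG was read as G in every one of 3952 to 7383 calls per library. The upper limit of the Wilson interval was 0.0971% in the library with the fewest calls. The 6 references with A at 26, those for alanine, isoleucine, leucine (CUN), methionine, tyrosine and valine, were all under 0.5% in every library, with 0.248% the highest. mito-Ile-GAT, whose human counterpart is a known TRMT1 substrate, has A at this place in the mouse reference, and all its 70 to 204 calls per library were A. Over 7 references the mean at 26 was 16.3% ± 0.219 and 16.9% ± 0.828 (SD, n = 3), and without mito-Pro-TGG it was 2.32% and 3.10%. The knockout libraries lay on both sides of the wild-type values.

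G37 was measured in mito-Pro-TGG, where it is a site of 1-methylguanosine, while G37 of mito-Leu1-TAG was not listed in all 6 libraries. In mito-Pro-TGG it was mismatched in 0.325%, 2.24% and 5.06% of wild-type calls and 2.89%, 1.65% and 3.26% of knockout calls. The groups overlapped. Reads without a call at this base made 17.0%, 1.33% and 14.3% of wild-type reads and 11.1%, 2.02% and 1.17% of knockout reads, so this share was above the mismatch share in 4 of the 6 libraries. Reads that began right after it, at position 35, made 32.1%, 21.4% and 16.2% and then 17.2%, 18.4% and 20.9% of the coverage at position 36. The 9 references with A37 had under 0.5% mismatches in every library. They include mito-Ile-GAT and mito-Thr-TGT, whose A37 carries a threonylcarbamoyl group, and mito-Tyr-GTA, whose A37 carries an isopentenyl group, and all 3 had 0% in all 6 libraries, on 65 to 204 calls. The mean over 6 references was 0.445% ± 0.393 in the wild type against 0.454% ± 0.106 in the knockout (SD, n = 3).

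The base numbered 58 in the T loop is methylated in some mitochondrial tRNAs, among them that for leucine (UUR). At position 60 of mito-Leu2-TAA, which corresponds to it, 501 to 692 reads per library showed 0% mismatches, deletions and insertions, and no read began just after it.

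Across the mitochondrial sites with at least 100 reads and a pooled mismatch rate of at least 1%, 0 of 24 were called by the limma-moderated quasi-binomial test, and 0 had an unadjusted p under 0.05. Over all 142 sites tested, 0 were called as well, or 0%, and 12 had an unadjusted p under 0.05. The knockout mean was the higher at 19 of the 24 sites, with a median difference of 0.53 points, against 83 of all 142 sites and a median of 0.16 points. The difference at mito-Leu2-TAA, of 4.62 points, and that at A9 of mito-Val-TAC, of 5.50 points, were the largest of these 24.

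In 3 references minor substitutions had shares that varied between libraries in much the same order. In mito-Gln-TTG, A8G was read in 3.45%, 6.21% and 0.665% of wild-type calls and 3.07%, 2.13% and 7.00% of knockout calls. T14A was read in 179, 258 and 37 reads and then 260, 137 and 461 reads, and A16T in 179, 258 and 36 reads and then 260, 137 and 461. The counts of T14A and A16T differed by 1 read in 1 library and were equal in the other 5.

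mito-Met-CAT had a similar set further along. C44T was read in 2.79%, 5.56% and 0.906% of wild-type calls and 2.77%, 0.182% and 6.75% of knockout calls, T51C in 14, 40 and 7 and then 20, 0 and 43 reads, and T56C in 14, 38 and 7 and then 20, 0 and 43 reads. The second knockout library had none of the last 2, the third wild-type library had few, and the second wild-type and the third knockout libraries had the most. In mito-Leu2-TAA, A21T was read in 0.990%, 4.44% and 0% of wild-type calls and 4.87%, 2.22% and 6.77% of knockout calls. In all 3 references the third knockout library was the highest, and the third wild-type library was the lowest of its genotype. A change that did not follow this order was G71C, near the 3′ end of mito-Gln-TTG, at 6.16%, 3.93% and 13.1% of wild-type calls and 4.95%, 10.3% and 1.29% of knockout calls. Genotypes overlapped at each of these sites, and whether the substitutions are carried by the same molecules or animals was not tested.

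Deletions were listed at a mean of 5% or more at 7 mitochondrial positions. The smallest p among them was in mito-Gln-TTG, where the C at position 54 was missing, as listed at 53, in 4.82%, 3.77% and 4.75% of wild-type reads and 8.25%, 8.14% and 7.97% of knockout reads. The knockout libraries were close to each other and all above the wild type. All 504 deletions, of 7776 reads, were of this single base. The site had an unadjusted p of 0.00558 and an adjusted p of 0.141 (limma-moderated) among 60 deletion sites, of which 0 were called, or 0%, and 8 had an unadjusted p under 0.05. With at least 500 reads required the adjusted p was 0.0227 over 13 sites, with a pooled rate of at least 5% required it was 0.0423 over 14 sites, and on the arcsine scale it was 0.512. Coverage fell steeply at the same place: the share of the coverage at 53 that remained at 55 was 46.2%, 57.9% and 43.8% in the wild type against 37.4%, 45.3% and 38.2% in the knockout. These shares overlapped between genotypes, and their part in the deletion values was not tested. At position 54 itself, reads without a call made 0% to 0.608% of the coverage, so reads with this deletion were hardly counted in the coverage there, unlike those that skipped A9 of mito-Ala-TGC.

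Of the 17 mitochondrial deletion sites tested, 3 did not overlap between the genotypes, against 13.3% of all 60 sites. The second was position 7 of mito-Val-TAC, given above with A9. The other was position 67 of mito-Met-CAT, where 1.33%, 3.37% and 2.26% of wild-type reads and 0.935%, 0% and 0.476% of knockout reads had a deletion (adjusted p = 0.549, limma-moderated). The knockout values were the lower there, on 107 to 210 reads. In mito-Leu2-TAA a C was missing after position 57 in 7.04%, 1.499% and 6.02% of wild-type and 7.83%, 8.20% and 3.68% of knockout reads, and at the same position an extra A was inserted in 12.0%, 6.92% and 12.9% and then 10.9%, 5.74% and 7.37%. The second library of the wild type was the lowest of its group for both, and the genotypes overlapped for both. A T was missing after position 70 of the same reference in 5.16%, 1.77% and 4.79% of wild-type and 9.09%, 3.37% and 9.94% of knockout reads, with the second library of each genotype the lowest (adjusted p = 0.677, limma-moderated). In mito-Met-CAT, 5.14%, 4.28% and 5.23% of wild-type and 5.06%, 7.51% and 5.35% of knockout reads had a deletion listed at position 49, of TTT in 131 of 289 reads.

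Deletions in 1 library alone were also seen. In mito-Cys-GCA, the cysteine tRNA, a C was listed as deleted after position 52 in 98.6% of the reads of the third wild-type library and in 0% of the reads of the other 5, on 62 to 190 reads. That position was too shallow to be tested. An A was inserted after position 30 of mito-Leu1-TAG in 15.1%, 7.49% and 4.13% of wild-type and 4.22%, 2.56% and 28.8% of knockout reads, with the first wild-type and the third knockout library above the rest. No mitochondrial insertion site was called by the limma-moderated test, 0 of 7, and 0 had an unadjusted p under 0.05; of all 35 sites 0 were called, or 0%, and 3 had an unadjusted p under 0.05. None of the 7 separated the genotypes, against 5.71% of the 35.

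Coverage along the molecule differed between the references. The positions listed in all 6 libraries were divided into 3 equal stretches, and the median coverage of the first was divided by that of the last. For mito-Gln-TTG this ratio was 18.5, 11.2 and 17.9 in the wild type against 26.8, 21.5 and 30.96 in the knockout. All 3 knockout libraries were above the wild type there, by 0.75 on the log2 scale. For mito-Met-CAT the ratio lay between 9.11 and 18.8 in the wild type and between 8.40 and 12.4 in the knockout, and for mito-Tyr-GTA 4.77, 3.61 and 4.28 against 7.37, 3.20 and 5.80. In both the genotypes overlapped. mito-Val-TAC leaned the other way, with 0.180, 0.130 and 0.194 against 0.202, 0.144 and 0.184. mito-Leu2-TAA, mito-Pro-TGG and mito-Ala-TGC were below 1 in every library too, with values between 0.227 and 0.792. mito-Ile-GAT, at 1.13 to 2.31, was above 1, mito-Thr-TGT, at 0.976 to 1.39, was near 1, and mito-Cys-GCA, at 0.457 to 1.23, lay on both sides. These ratios cover only a part of the molecule for mito-Ala-TGC, mito-Cys-GCA, mito-Ile-GAT, mito-Thr-TGT and mito-Tyr-GTA, of which 61, 34, 55, 41 and 58 positions were listed in all 6 libraries. mito-Leu1-TAG was listed only for its first 34 positions, and within them its coverage was lower in the first 11 than in the last 11.

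In mito-Tyr-GTA, mito-Gln-TTG and mito-Met-CAT coverage fell at the anticodon, and in all 3 it fell again further on. In mito-Tyr-GTA, whose anticodon begins at position 29, 27.9%, 33.5% and 25.6% of wild-type reads and 21.5%, 39.4% and 20.6% of knockout reads at position 31 continued to 32, and 42.6% to 71.3% of the coverage at 47 was left at 53. In mito-Gln-TTG, whose anticodon begins at 33, 34.3%, 36.3% and 33.2% and then 31.4%, 31.8% and 31.1% of the coverage at 35 was left at 40. Every knockout library was lower there than every wild-type library, and this ratio was not tested. In mito-Met-CAT, whose anticodon begins at 31, 56.1%, 22.2% and 58.7% and then 58.6%, 59.96% and 56.7% of the coverage at 29 was left at 32, and the second wild-type library stood apart from the other 5. In that library coverage fell from 4438 reads at position 29 to 2483 at 30 and 987 at 32. Further on, 49.5% to 63% of the coverage of mito-Met-CAT at 48 was left at 52. mito-Leu1-TAG fell just before its anticodon, which begins at 33: 45.7%, 17.2% and 50.4% and then 57.4%, 33.97% and 36.7% of the coverage at 30 was left at 33, on 39 to 136 reads.

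**Figure D3:**
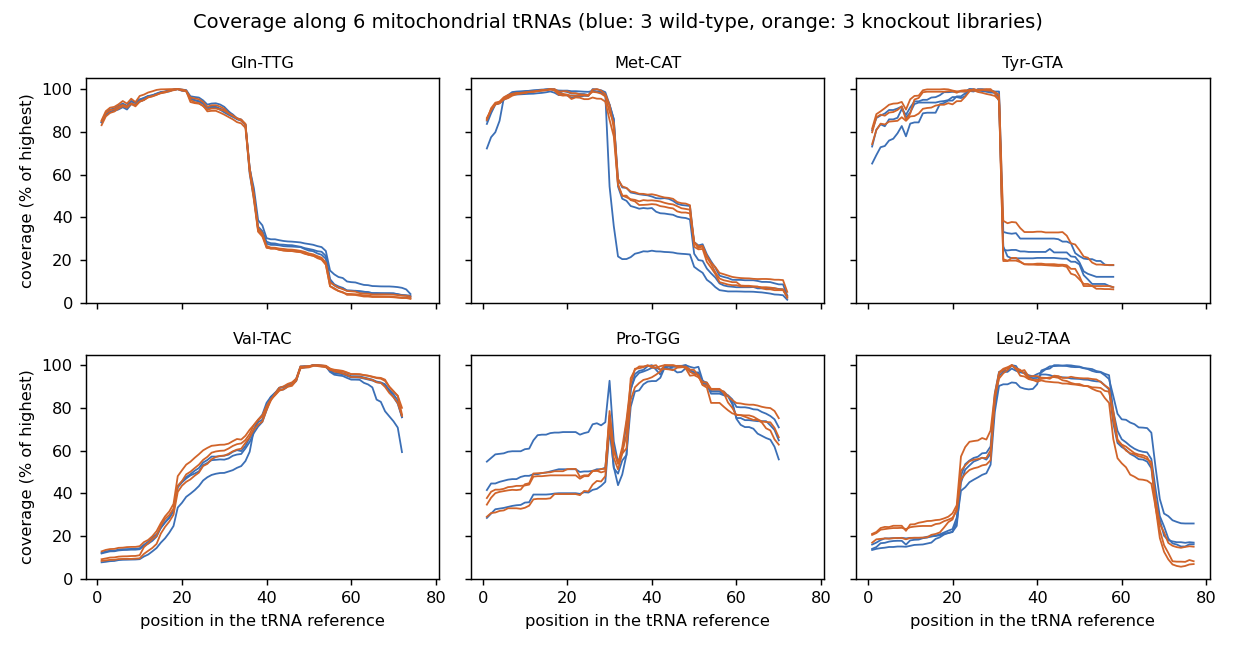
Coverage at each position (horizontal axis) as a percentage of the highest coverage of that reference in the same library (vertical axis), for 6 mitochondrial tRNAs; blue lines are the 3 wild-type and orange lines the 3 knockout libraries. In Gln-TTG, Met-CAT and Tyr-GTA coverage drops near the anticodon, in Val-TAC it rises toward the 3′ end, and 1 wild-type library of Met-CAT keeps 22.2% of its coverage from position 29 to 32 where the others keep 56.1% to 59.96%.

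Read starts inside a tRNA mark a place where reverse transcription stopped or a fragment began, and the reads do not tell these apart. Each share divides the reads that begin at a position by the coverage of the next position, where the files list them. Among 416 mitochondrial positions with at least 100 reads, 33 had a mean share of read starts of 5% or more and 9 had 10% or more. In mito-Pro-TGG, reads beginning at position 30, numbered 33 at the anticodon loop, made 52.7%, 46.5% and 40.4% of the coverage at position 31 in the wild type against 47.3%, 45.2% and 57.0% in the knockout. The same reads made 39.4%, 32.8% and 28.01% and then 37.3%, 35.6% and 43.9% of the coverage at position 30 itself. In mito-Thr-TGT, the threonine tRNA, reads beginning at position 30, also numbered 33, made 68.9%, 68.9% and 65.6% and then 56.2%, 63.6% and 41.7%. The knockout libraries were all lower for mito-Thr-TGT on this scale, on 64 to 144 reads and thus below the coverage that was tested. Over the coverage at position 30 itself the mito-Thr-TGT shares were 72.3%, 65.3% and 66.7% against 59.1%, 66.96% and 44.6%, and the genotypes overlapped. For mito-Pro-TGG they overlapped on both scales.

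In mito-Leu2-TAA the main starts were at position 22, with 36.3%, 33.0% and 39.5% against 36.8%, 33.3% and 29.9%, and at position 30, with 25.7%, 27.4% and 24.3% against 17.8%, 24.5% and 31.6%. Position 30 lies 2 bases after G26, and the genotypes overlapped at both. In mito-Val-TAC the highest start was at position 19, with 24.2%, 24.3% and 26.3% against 25.5%, 24.4% and 23.0%, and position 11 gave 9.52%, 10.8% and 9.17% in the wild type, a value within that range in the first knockout library, and 15.8% and 22.1% in the other 2. Starts at 19 varied little, and the second and the third knockout libraries were above the wild type at 11. Reads that began directly after base 9, at position 10, were few beside the mismatches there. They made 0% of the coverage at position 11 of mito-Ala-TGC and mito-Leu1-TAG in every library and at most 0.697% of that of mito-Val-TAC. For mito-Pro-TGG the means were 1.58% in the wild type against 1.90% in the knockout. The shares were higher in mito-Ile-GAT, with 6.32%, 6.58% and 8.82% in the wild type against 5.51%, 4.22% and 2.06% in the knockout. The mito-Ile-GAT shares rest on only 12, 10 and 6 starting reads and then 7, 7 and 2, and the difference was not tested.

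**Figure D4:**
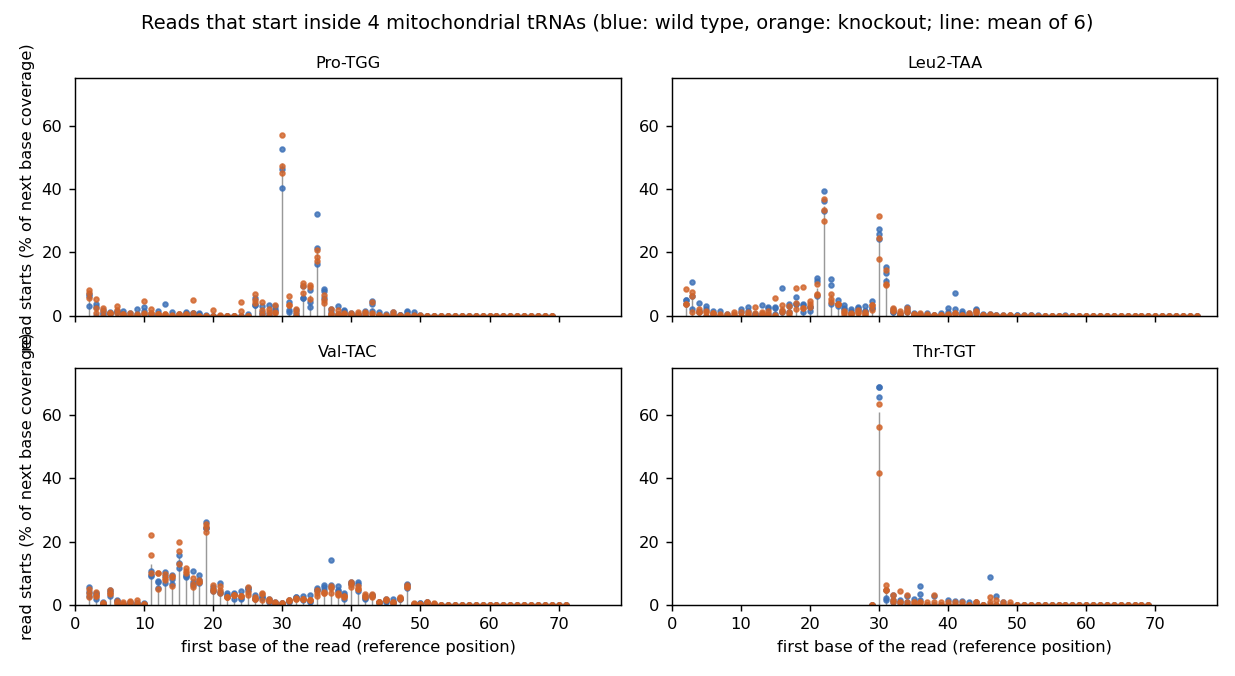
Reads whose first base is the given position (horizontal axis), as a percentage of the coverage at the next position (vertical axis), for 4 mitochondrial tRNAs; points are single libraries, grey lines the mean of 6, and starts at position 1 are left out. Pro-TGG and Thr-TGT have 1 dominant start at position 30, Leu2-TAA has starts at 22 and 30, and Val-TAC has many starts of which the highest, at 19, holds 23.0% to 26.3%.

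By the limma-moderated test 0 of the 129 mitochondrial read-start sites were called, while 7 of all 1133 were, or 0.618%. Unlike the 416 positions above, the tested sites include reads that begin at position 1. An unadjusted p under 0.05 was reached by 5 of the 129 and by 103 of the 1133. The smallest belonged to reads beginning at position 36 of mito-Val-TAC, the base numbered 37, with means of 5.45% in the wild type against 3.84% in the knockout (unadjusted p = 0.00844, adjusted p = 0.319, limma-moderated). The genotypes did not overlap at 11 of the 129 sites, against 15.4% of all sites. At 9 of them the knockout was lower, against 6.97% of all sites, and at 2 higher, against 8.38%. The knockout mean was lower at 87 of the 129 sites, with a median difference of -0.31 points, and at 639 of the 1133, with a median of -0.16 points.

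The highest coverage of a reference stood for its abundance. It ran from 4913 to 6918 reads for mito-Val-TAC and 4173 to 8003 for mito-Gln-TTG down to 67 to 147 for mito-Thr-TGT and 62 to 190 for mito-Cys-GCA, an order that also reflects how each molecule was read. The neighbours mito-Val-TAC and mito-Gln-TTG overlapped, as did mito-Pro-TGG (390 to 838) and mito-Tyr-GTA (353 to 751), and mito-Ala-TGC (150 to 330), mito-Leu1-TAG (123 to 246) and mito-Ile-GAT (70 to 205). mito-Met-CAT, at 1703 to 4557, was above mito-Leu2-TAA, at 767 to 1132, in every library. mito-Ile-GAT was below mito-Gln-TTG, encoded beside it, and mito-Met-CAT, encoded next after mito-Gln-TTG, in every library. No mitochondrial reference had the same highest coverage in all 6 libraries as another reference, as cytosolic copies that share reads can have.

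**Figure D5:**
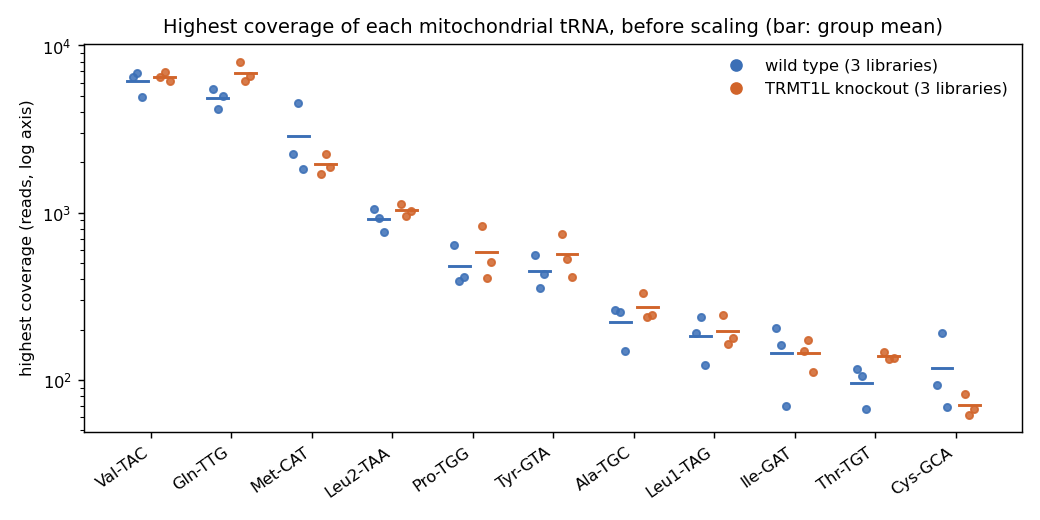
Highest coverage of each of the 11 mitochondrial tRNA references in reads, before scaling to library size (vertical axis, logarithmic), by library; points are libraries and bars group means. Levels run from 62 reads for Cys-GCA to 8003 for Gln-TTG, and 1 wild-type library lies above the other 5 for both Met-CAT and Cys-GCA.

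After scaling to library size with TMM factors, 2 of the 11 mitochondrial tRNAs were lower in the knockout by edgeR's quasi-likelihood test, against 10.3% of all 145 references called lower and 12.4% called higher, 22.8% in all. For mito-Met-CAT the highest coverage was 2247, 4557 and 1816 reads in the wild type against 1703, 2245 and 1888 in the knockout. Scaled to summed highest coverage (CPM), these were 11720, 24210 and 9678 against 6446, 8893 and 6752. The knockout libraries were all lower on this scale (log2 fold change -1.05, SE 0.32, edgeR adjusted p = 0.0399), and the second wild-type library was far above the rest. Without it the change was -0.54 (SE 0.17, adjusted p = 0.00561), and with the median in place of the highest coverage it was -0.57 (adjusted p = 0.0932). At position 33, the last base of the anticodon, coverage on the same scale was 5708, 4941 and 5222 against 3228, 4844 and 3387, and every knockout library was again lower, by a small margin in the second.

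For mito-Cys-GCA the highest coverage was 93, 190 and 69 reads in the wild type against 83, 62 and 67 in the knockout, or 485.2, 1009 and 367.7 against 314.1, 245.6 and 239.6 CPM. Again the second wild-type library was the highest (log2 fold change -1.22, SE 0.37, edgeR adjusted p = 0.0403), and without it the change was -0.68 (adjusted p = 0.148). mito-Val-TAC came next, at 33760, 36560 and 26180 against 24370, 27400 and 21810 CPM, with groups that overlapped (log2 fold change -0.39, SE 0.14, edgeR adjusted p = 0.0662). mito-Gln-TTG was not called (log2 fold change 0.01, SE 0.13, adjusted p = 0.948), although its first knockout library, at 8003 reads, was at the depth limit and gives only a lower bound. Of the 11 references, 9 had a fold change below 0, with a median of -0.31, against 73 of all 145 and a median of -0.0041.

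Both tRNAs were also called with DESeq2 (adjusted p = 0.00258 and 0.00765). Leaving out 1 library left between 0 and 4 of the 11 called by edgeR, and each of these 2 tRNAs lost its call in 4 of the 6 fits with a library left out. mito-Met-CAT remained called only without the second or the third wild-type library, and mito-Cys-GCA only without the third wild-type or the first knockout library. Without the second knockout library the adjusted p-values by edgeR were 0.0678 and 0.116, and without the first knockout library that of mito-Met-CAT was 0.0711. None was called without the first wild-type library, where the changes were -1.20 for mito-Met-CAT and -1.37 for mito-Cys-GCA, or without the third knockout library, where they were -1.04 and -1.22. The size of both changes rested in part on the second wild-type library, as given above. With upper-quartile scaling 7 of the 11 were called lower, these 2 among them at -1.51 and -1.68, while that scaling moved the median of all 145 references to -0.49. Among the mitochondrial references alone, with levels relative to each other, edgeR called 0 of 11, and 2 had an unadjusted p under 0.05. These were mito-Thr-TGT, higher in the knockout (log2 fold change 0.49, edgeR unadjusted p = 0.0175), and mito-Cys-GCA, lower (-0.75, edgeR unadjusted p = 0.04735). The change of mito-Met-CAT was -0.58 (edgeR unadjusted p = 0.0856).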

How the data were processed

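Small RNA from 3 wild-type and 3 TRMT1L knockout mouse brain samples was analysed, with groups and replicate numbers from the labels' titles. The deposited tables hold, per the file headers, raw counts at every listed base of the tRNA references: coverage, calls of each base, reverse-transcription stops, deletions and insertions. A median base quality score is also deposited for each base. The reference base and the strings of inserted and deleted bases, also deposited by the authors, are text. The submitters' processing notes name GATK 3.5; the aligner, the reference set and the build were not given in the sources used here. The files list positions with at least 30 reads, and the highest coverage is 8032.

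Mismatch shares are of called bases, and other shares are of coverage. Deletions listed at a position name the bases after it (1349 of 1368 strings), and stops listed at a position count reads beginning 1 base earlier (527 of 527 references at position 2), given here as a share of the coverage where they are listed. Sites with coverage of at least 100 in each library and a pooled rate of at least 1%, cytosolic ones included, were tested with a quasi-binomial model moderated by limma 3.58.1 (R 4.3.3), two-sided, with Benjamini-Hochberg adjustment and a threshold of 0.05. Stops were capped at coverage, and sites where every read differs were left out. Highest coverage was tested with edgeR 4.0.16 (quasi-likelihood, TMM), with DESeq2 1.42.0 as an alternative. Group means of single values used exact permutation tests. Wilson 95% intervals cover counting error only, since reads carry no molecular identifiers. The methods were tested on simulated data. The sources do not say that replicates came from separate animals beyond calling them biological, so p-values measure the spread between these libraries. Same-numbered libraries correlated between -0.17 and 0.36 in their deviations from the group means and were not treated as pairs.

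The members, lists and groupings were chosen with earlier results of these data known. Named were positions 9, 26 and 37 of each mitochondrial tRNA, sites with a mean of 5% or more, the sites with the smallest p, and each highest coverage. Alternatives changed the coverage and rate minimum, the test, the scaling and how coverage was summarised, used replicate numbers as a block, or dropped 1 library. RefSeq (GRCm38.p6) was used only for names and neighbours of genes, since the files give no genome coordinates.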

Additional observations from a re-analysis of the deposited data

How the results depend on the processing

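Most values kept their direction. The mean difference at position 9 (1.22 points) lay between -0.158 and 1.98 when single libraries were left out, negative only without the first knockout library, and was 4.32 with a minimum of 30 reads. At position 37 (0.0091 points) the sign turned with a minimum of 500 reads (-0.000823) and with reads pooled over references (-0.00527), and leaving out single libraries gave -0.178 to 0.214; these shifts are within the spread of the libraries. At position 26 (0.665 points) single libraries gave 0.285 to 1.11, a minimum of 500 reads, which leaves out mito-Leu2-TAA and mito-Pro-TGG among others, gave 0.00591, and pooled reads gave 0.0798. Single libraries gave, for the A9 references 6.04 to 11.3, and for the mitochondrial share of base calls -2.47 to -1.16. With a minimum of 500 reads, or a pooled rate of 5%, 1 mitochondrial deletion site was called in place of 0, in mito-Gln-TTG, with fewer sites tested. The share of reads without a call did not test that site. Mismatch, insertion and read-start sites gave 0 calls under every alternative run. For highest coverage, 2 tRNAs were called, against 7 with upper-quartile scaling, 1 with the median coverage (mito-Cys-GCA), 0 among mitochondrial references alone, 2 with DESeq2, and 0 to 4 without single libraries; beyond the construction of each setting the cause was not tested. Same-numbered libraries were not paired: correlations of their deviations were not above 0.1 in every pair, except for no-call shares (0.196 to 0.358). The replicate block cannot move a difference of group means in this balanced design (1.22, 0.665, 0.0091, 8.67 and -1.67). With the block, site calls stayed at 0 and 3 tRNAs were called for highest coverage, mito-Val-TAC added (adjusted p = 0.00507 by edgeR). In each of the 3 pairs of libraries, read starts and highest coverage correlated best with the same number. The alternatives for the A9 references, for mitochondrial references alone and for position 26 without mito-Pro-TGG were chosen after seeing the data. So were highest coverage without references at the depth limit, the share of reads without a call, and read starts over the coverage at their first base. Depth limits the positions with under 100 reads, which include position 9 of mito-Ala-TGC, mito-Leu1-TAG and mito-Ile-GAT, and coverage at the depth limit is a lower bound.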
